A study of Mus musculus with 23 samples.

Results

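Donor-derived cells that overexpressed the intracellular domain of Notch1 (N1OE) were compared with donor-derived control cells after engraftment and re-isolation. The comparison takes 9 of the 23 RNA libraries of the series. They are the 4 re-isolated N1OE libraries, replicates 1 to 4, and those 5 of the 9 re-isolated control libraries whose column header ends in the mark GoF, which are control replicates 1, 4, 7, 8 and 9. The mark is not explained in the labels, and the description of control replicate 7 lacks it. No header of the 4 N1OE libraries carries the mark, so mark and genotype cannot be told apart in this comparison. Both groups come from the iPAX3 mouse line, in which myogenic progenitors are made from pluripotent stem cells, and both are labelled as donor-derived satellite cells. The N1OE genotype is given as NICD1 overexpression and the control genotype as WT. The sources used here do not give the host, the time after transplantation, the promoter that drives NICD1, the number of clones or animals, or the sort that selected the cells. Since nothing says that the libraries come from separate animals or cultures, p-values measure the spread between these libraries, which may be technical.

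Satellite cells are the stem cells of skeletal muscle and are marked by the transcription factor Pax7. Notch1 is a surface receptor. When a ligand on a neighbouring cell binds it, its intracellular domain is cut free and joins the DNA-binding protein Rbpj, which then turns on targets such as the Hes and Hey repressors. In muscle, this pathway is known for holding satellite cells in quiescence, for restraining differentiation and, through collagen genes, for shaping their niche.

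The 4 N1OE libraries held between 11637817 and 29154176 reads in the listed genes, and the 5 marked control libraries between 16501661 and 28941840. A gene was tested when it reached 1 CPM, the read count scaled to the library total, in at least 3 of the 9 libraries, which 13320 of 21264 genes did. With limma on the deposited log2 CPM values, 1630 genes passed an adjusted p of 0.05 (12.2%), of which 898 were higher in N1OE (6.74%) and 732 lower (5.5%). The libraries of the groups did not overlap for 7.15% of the tested genes in the higher and 5.11% in the lower direction. With limma-voom on recovered reads 10.4% passed (5.9% higher, 4.53% lower). The median log2 difference over all tested genes was 0.06. Of the tested genes, 681 passed this filter through the N1OE libraries alone and 608 through the controls alone. The filter itself favours a difference in such genes, although not all of them were called. Where they were called, their fold changes over all 9 libraries are given below as descriptions without a p-value, and the counts of lists that hold them are descriptions too. The controls differed in their lowest counts. Controls 7, 8 and 9 held 947, 851 and 1409 genes with exactly 1 read, while controls 1 and 4 held 461 and 455 and the N1OE libraries held 435 to 550. With these subsets of controls, chosen after seeing the data, 843 genes passed against controls 1 and 4 alone (561 higher, 282 lower) and 1109 against controls 7, 8 and 9 alone (655 higher, 454 lower). The higher genes were 66.5% of the calls in the first of these, against 55.1% with all 5 controls. Against the 4 re-isolated control libraries without the mark, called unmarked below, 2731 genes passed, 1324 higher and 1407 lower. These unmarked libraries differ from the 9 in their lowest counts. Genes with 1 read outnumbered those with 2 by 1.08 to 1.5 times in them. The ratio was 4.18 to 6.82 in N1OE libraries and 4.17 to 5.91 in marked controls. Comparisons with the unmarked controls are therefore not like for like, and what sets these libraries apart was not tested. Each fit applied the level filter to its own libraries, so list counts there can cover other members. The outcome also depended on single libraries. Without N1OE replicate 2, 1072 genes passed (519 higher, 553 lower), and without N1OE replicate 3, 1105 passed (551 higher, 554 lower).

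**Figure D1:**
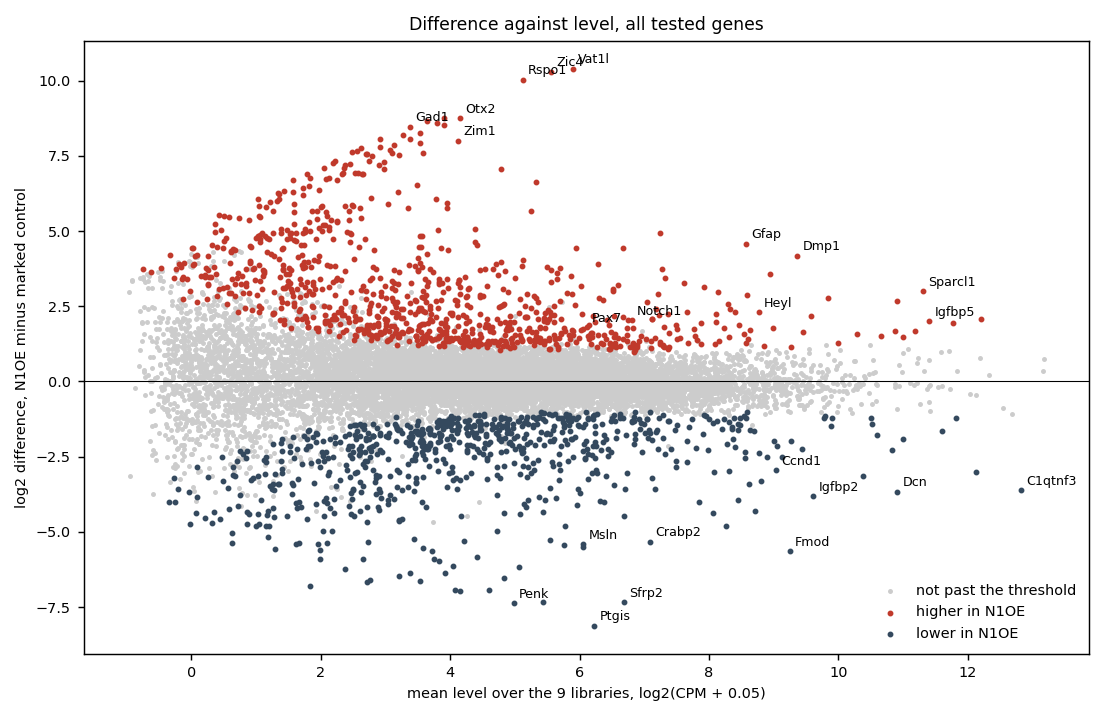
Difference against level for all tested genes. The x axis is log2 of the mean CPM over the 9 libraries plus 0.05, the y axis is the log2 difference of N1OE minus marked control, and each point is 1 gene, coloured where it passed an adjusted p of 0.05 (898 higher, 732 lower). Vat1l, Zic4 and Rspo1 stand highest, and Ptgis lowest.

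Notch1 was higher in N1OE cells, and so were 5 of the 11 tested Notch targets (45.5%, against 12.2% of all tested genes), while none was lower. Notch1 (chromosome 2, 26457903 to 26516663, minus strand, GRCm38) was at 247, 257, 151 and 98.1 CPM in N1OE replicates 1 to 4, against 14.9, 88.9, 27.5, 52.0 and 72.9 CPM in control replicates 1, 4, 7, 8 and 9. The groups did not overlap, although the highest control lay just under the lowest N1OE library. The log2 difference was 2.04 ± 0.45 (standard error of limma, here and below) with an adjusted p of 0.00383. With all 9 controls it was 1.22 (adjusted p = 0.201), and against the unmarked controls alone 0.19 (adjusted p = 0.742), so the call was lost in both. Reads of the transgene and of the endogenous gene cannot be told apart in these values.

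The Hey and Hes genes encode basic helix-loop-helix repressors. Heyl (chromosome 4, 123233556 to 123249875) was at 776, 921, 696 and 570 CPM in N1OE cells, against 38.7, 351, 94.9, 225 and 251 CPM in controls. All N1OE libraries were above all controls, and control 1 was the lowest library. Heyl rose by 2.30 ± 0.48 (adjusted p = 0.00227). Hey1 was at 185, 288, 177 and 257 CPM in N1OE cells, against 18.7, 120, 24.6, 77.1 and 96.4 CPM in controls. It rose by 2.07 ± 0.46 (adjusted p = 0.00405), again without overlap. Against the unmarked controls neither gene passed, with differences of 0.44 for Heyl (adjusted p = 0.381) and 0.01 for Hey1 (adjusted p = 0.992). Hes5 was low in both groups, at 2.68, 8.97, 5.93 and 3.27 CPM in N1OE cells and at 0.311, 0.804, 0.16, 0 and 1.36 CPM in controls. It was higher by 3.75 ± 0.88, having passed the level filter through N1OE alone, and without N1OE replicate 2 the call was lost. Without control 8, in which it had no read, the difference was 3.08.

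Feedback regulators of the pathway were also among the genes that passed. Nrarp, which promotes turnover of the free Notch domain, was at 16.6, 15.4, 6.01 and 8.56 CPM in N1OE cells, against 0.311, 4.2, 0.693, 2.85 and 3.3 CPM in controls. It rose by 2.73 ± 0.65 (adjusted p = 0.00672). Dtx4, an E3 ubiquitin ligase of the Deltex family, was at 154, 207, 184 and 170 CPM in N1OE cells, against 20.4, 143, 52.2, 129 and 49.8 CPM in controls. It rose by 1.5 ± 0.45 (adjusted p = 0.0286). Controls 4 and 8 came close to the N1OE level of Dtx4, and controls 1, 7 and 9 did not. Nrarp lost its call without N1OE replicate 1 (adjusted p = 0.056) or 2 (0.052). Dtx4 lost it without any single N1OE replicate (adjusted p between 0.0737 and 0.116) and without control 1 (0.0613).

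The other 6 tested targets did not pass, although Bcl6 passed without N1OE replicate 4 (adjusted p = 0.0478) or control 4 (0.0243), Notch3 without control 4 (0.0176) and Hes1 without control 4 (0.049). Their log2 differences were 1.06 ± 0.36 for Bcl6, 1.14 ± 0.45 for Hey2, 1.25 ± 0.48 for Notch3, 0.89 ± 0.38 for Hes1, 0.69 ± 0.4 for Gadd45g and -0.08 ± 0.49 for Lfng. Hes1, the best known direct target, averaged 290 ± 105 CPM in 4 N1OE libraries and 164 ± 71.7 CPM in 5 controls (SD), and its groups overlapped. The median over the 11 targets was 1.25, against 0.06 over all tested genes, and 1 of the 11, Hes5, had passed the level filter through N1OE alone. The count of 5 targets became 3 without N1OE replicate 1, 2 without N1OE replicate 2 and 8 without control 4, in which most targets were higher than in the other controls. Against the unmarked controls, where the filter covers other libraries and can admit other members, 2 targets were higher and 2 lower. Among the 11 targets above only Nrarp was lower there, with a log2 difference of -2.05 ± 0.39 (adjusted p = 0.000299). The differences of -0.54 for Hes5 and -0.83 for Hes1 did not pass. Of 25 receptors, ligands and regulators of the pathway, 2 passed (8%, against 12.2% of all tested genes), both higher. They were Notch1 itself and the ligand Dll4, which had 0, 12.5, 7.13 and 4.93 CPM in N1OE cells against at most 0.0606 CPM in any control. Dll4 had 420 reads in N1OE cells and 3 in controls, a ratio of 186 (95% counting interval 63.3 to 906), or 294 without N1OE replicate 1 and 104 without N1OE replicate 2. It did not pass with limma-voom (adjusted p = 0.344), and it was not tested without N1OE replicate 2, 3 or 4. Of the 25 genes, 3 had passed the filter through N1OE alone, Dll4 among them, and 1 through the controls alone.

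**Figure D2:**
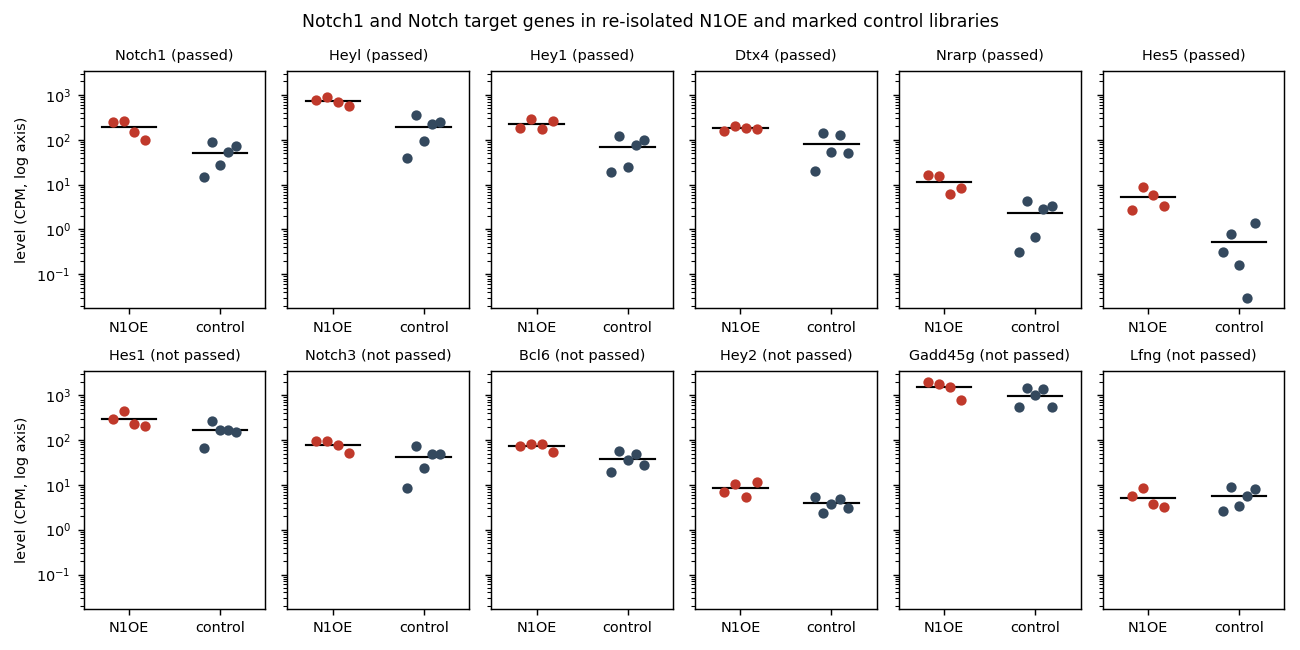
Notch1 and the 11 tested Notch targets in each library. The y axis is the level in CPM on a log axis, each point is 1 library (N1OE left, marked control right), the black line is the group mean, and a library with 0 reads is drawn at 0.03 CPM (Hes5 in control 8). The panels of the upper row passed the test and those of the lower row did not.

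The promoters of Hes5 and Nrarp, which were higher, and of Lfng, which did not pass, are shown because Notch1 acts on its targets through Rbpj bound at such sites. The sequences are the 250 bases before the start site from RefSeq (GRCm38.p6, 5′ to 3′ on the gene's strand), and capitals mark TGGGAA or its reverse complement TTCCCA. The windows are chr4:154960673-154960922 for Hes5, chr2:25180508-25180757 for Nrarp and chr5:140607091-140607340 for Lfng, all on the plus strand.
Hes5: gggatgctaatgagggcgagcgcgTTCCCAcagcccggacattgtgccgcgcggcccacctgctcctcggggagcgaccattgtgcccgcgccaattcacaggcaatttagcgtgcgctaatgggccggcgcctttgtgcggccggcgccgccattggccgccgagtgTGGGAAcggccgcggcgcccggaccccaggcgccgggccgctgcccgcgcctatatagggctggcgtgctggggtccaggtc
Nrarp: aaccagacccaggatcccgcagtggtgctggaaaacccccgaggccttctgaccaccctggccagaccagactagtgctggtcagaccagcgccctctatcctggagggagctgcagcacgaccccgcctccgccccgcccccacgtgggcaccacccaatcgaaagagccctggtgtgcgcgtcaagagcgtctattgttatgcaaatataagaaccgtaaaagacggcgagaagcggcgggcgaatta
Lfng: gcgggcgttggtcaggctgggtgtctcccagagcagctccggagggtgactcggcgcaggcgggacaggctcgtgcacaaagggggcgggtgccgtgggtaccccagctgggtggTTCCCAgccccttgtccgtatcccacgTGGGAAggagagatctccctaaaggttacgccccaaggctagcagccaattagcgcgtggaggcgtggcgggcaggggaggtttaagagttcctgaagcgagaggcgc
TGGGAA is the core of the Rbpj site, and it was searched on both strands from 250 bases before to 50 bases after the start. The Hes5 window held it 2 times, beginning 226 and 82 bases before the start, and both copies had the longer form GTGGGAA. The Nrarp window held none of these letters, and the Lfng window held 2, of which 1 had the longer form. Among genes not shown, the window of Hey2, which did not pass, held 2, both of the longer form. Notch1, which was higher, held none, and neither did Notch3 or Bcl6, which did not pass. Gadd45g, which did not pass, held 1 without the longer form. TGGGAA occurs in 25.6% and GTGGGAA in 6.38% of the 32851 RefSeq mouse promoters of that length, and the longer form contains the shorter. Of the 12 genes looked up, 8 were in the promoter table, and no promoter is shown for Hes1, Hey1, Heyl and Dtx4. A match is a description of the letters and not a measured binding site.

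Satellite cell genes were higher in N1OE cells in 8 of 25 cases and lower in none, with a median log2 difference of 0.62. The share was 32%, against 12.2% of all tested genes in either direction and 6.74% in the higher direction. The 8 were the transcription factors Pax7, Pax3 and Myf5, the calcitonin receptor gene Calcr, the receptor genes Megf10 and Fgfr4, and the genes Chrdl2 and Chodl, of which Chrdl2 encodes a secreted BMP antagonist. Pax7 was at 91.8, 154, 98.6 and 98.1 CPM in N1OE cells, against 11.5, 61.6, 28.1, 37.6 and 37.6 CPM in controls. The groups did not overlap, and N1OE replicate 2 was the highest library while control 1 was the lowest. Pax7 rose by 1.81 ± 0.4 (adjusted p = 0.00398), but against the unmarked controls it differed by 0.45 and lost its call (adjusted p = 0.385). In bulk libraries, fewer cells of a type and less RNA per cell cannot be told apart.

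Pax3, which sets up muscle progenitors in the embryo and whose name the line carries, was at 45.4, 44.9, 75.5 and 57.8 CPM in N1OE cells, against 12.1, 5.54, 2.18, 6.0 and 17.5 CPM in controls. It rose by 2.98 ± 0.47 (adjusted p = 0.000146). Reads of any Pax3 transgene and of the endogenous gene cannot be told apart here either. Chodl, a membrane protein of the C-type lectin family, was at 349, 657, 477 and 633 CPM in N1OE cells, against 18.7, 156, 33.0, 121 and 104 CPM in controls, a rise of 2.97 ± 0.49 (adjusted p = 0.000228). Chrdl2 was at 136, 290, 174 and 172 CPM in N1OE cells, against 4.73, 53.3, 2.72, 83.5 and 0.734 CPM in controls. Controls 4 and 8 stood well above controls 1, 7 and 9 for this gene. Its rise of 4.43 ± 0.88 (adjusted p = 0.00146) was 5.09 without control 4, 5.26 without control 8 and 3.57 without control 9. The count of 8 satellite cell genes was 4 without N1OE replicate 2 and 5 without N1OE replicate 3, N1OE replicate 4, control 1 or control 7. Several surface markers of satellite cells did not pass, among them Vcam1, Itga7, Cxcr4 and Cd34, whose differences lay between -0.94 and 0.62. These 4 were chosen after their values were seen. Against the unmarked controls 6 of the satellite cell genes were higher and 2 lower, and Chodl did not differ beyond its error (0 ± 0.36, adjusted p = 0.996).

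Regulators of muscle differentiation gave 2 higher genes of 19, a share near the 12.2% of all tested genes that passed, and none lower. The list had 3 higher and 6 lower genes against the unmarked controls. Myod1, the determination factor of myoblasts, was at 74.5, 94.2, 90.3 and 51.4 CPM in N1OE cells, against 5.7, 35.3, 5.06, 17.5 and 38.4 CPM in controls. It rose by 2.36 ± 0.51 (adjusted p = 0.00332) without overlap, but against the unmarked controls its difference was -0.87 (adjusted p = 0.0881). Myf5, its relative, averaged 60.7 ± 9.84 CPM in N1OE cells and 26.1 ± 15.2 CPM in controls (SD, n = 4 and 5). It rose by 1.44 ± 0.42 (adjusted p = 0.0277), but lost the call without any 1 of the 4 N1OE replicates, control 1 or control 7 (adjusted p between 0.0521 and 0.0925). The fusion factor Mymk rose by 1.3 ± 0.39 (adjusted p = 0.03). Its call was lost without any 1 of the 4 N1OE replicates, control 1, 7 or 8 (adjusted p between 0.0503 and 0.11). Myogenin (Myog), which acts later, was at 261, 403, 414 and 161 CPM in N1OE cells, against 93.3, 270, 130, 247 and 145 CPM in controls. Its groups overlapped and the difference of 0.82 ± 0.38 did not pass (adjusted p = 0.188).

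Among 35 sarcomere genes 5 were higher and 2 lower against the marked controls (20%, against 12.2% of all tested genes). Of the list members tested against the unmarked controls none was higher and 20 were lower. The fast-fibre actinin Actn3 was at 293, 330, 283 and 192 CPM in N1OE cells, against 15.9, 139, 34.8, 58.2 and 135 CPM in controls, and rose by 2.24 ± 0.49 (adjusted p = 0.00332), but against the unmarked controls it differed by 0.08 (adjusted p = 0.895). Mybpc2, the fast myosin binding protein, was at 7.56 to 12.1 CPM in N1OE cells and at most 2.61 CPM in controls. It passed the filter through N1OE alone and was higher by 4.74 ± 0.97, with 4.09 without control 1 or 7, 5.31 without control 4 and 5.49 without control 8. Tropomyosin Tpm2 fell by 1.63 ± 0.35 on the log2 scale (adjusted p = 0.00263). The 5 higher genes became 2 without any 1 of the N1OE replicates, 3 without control 7 and 8 without control 4 or 9, and the 2 lower genes became 1 without each N1OE replicate and without controls 1, 7 or 9. Of 9 myosin heavy chains 2 were higher, the cardiac and slow chains Myh6 and Myh7, and 3 were lower, the adult fast chains Myh1 and Myh2 and the extraocular chain Myh13. That is 55.6% of the 9. Of these 9, 3 had passed the filter through N1OE alone, Myh6 and Myh7 among them, and 1, Myh13, through the controls alone. For Myh7 the groups overlapped, with control 9 at 19.1 CPM and the N1OE libraries at 11.9 to 38.2 CPM. Myh1 was at 21.9, 59.7, 74.8 and 25.5 CPM in N1OE cells and at 122, 218, 177, 190 and 144 CPM in controls, and fell by 2.07 ± 0.38 (adjusted p = 0.000672). Myh6 was higher by 4.63 ± 1.0, with 3.92 without control 1, 5.25 without control 4 and 5.49 without control 9, and Myh13 did not pass with limma-voom (adjusted p = 0.0797). These chains are near-identical copies in gene clusters, so reads may be split between them. Without N1OE replicate 1 or 3 only 1 of the higher chains passed.

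Extracellular matrix genes were mostly lower in N1OE cells, with 23 of 41 lower and 3 higher (63.4%, against 12.2% of all tested genes). Their median log2 difference was -1.35, against 0.06 over all tested genes, and none of the 41 passed the level filter through 1 group alone. The genes that fell include the fibrillar collagens Col1a1, Col1a2 and Col11a1, the collagen VI chains Col6a2 and Col6a3, elastin (Eln), fibronectin (Fn1), the cross-linking enzyme gene Lox and the protease gene Mmp2. Fmod, a small proteoglycan that organises collagen fibrils (chromosome 1, 134037254 to 134048277), was at 15.5, 13.7, 35.7 and 14.2 CPM in N1OE cells, against 1760, 746, 1550, 270 and 1100 CPM in controls. The highest N1OE library was far below the lowest control. Fmod fell by 5.64 ± 0.46 on the log2 scale (adjusted p = 5.38e-08). Col1a2, a chain of type I collagen, was at 28.6, 22.9, 8.94 and 18.2 CPM in N1OE cells, against 314, 628, 140, 282 and 973 CPM in controls, and fell by 4.38 ± 0.46 (adjusted p = 1.09e-06).

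Abundant matrix proteins showed the same direction. Decorin (Dcn) was at 127, 194, 233 and 185 CPM in N1OE cells, against 5370, 1360, 1790, 7370 and 640 CPM in controls, and fell by 3.66 ± 0.52 (adjusted p = 4.64e-05). Thrombospondin 2 (Thbs2) was at 62.3, 73.3, 61.6 and 93.2 CPM in N1OE cells, against 1060, 453, 980, 479 and 763 CPM in controls, and fell by 3.3 ± 0.35 (adjusted p = 1.02e-06). Periostin (Postn) averaged 236 ± 112 CPM in 4 N1OE libraries and 2200 ± 1230 CPM in 5 controls (SD), and fell by 3.14 ± 0.43 (adjusted p = 2.62e-05). None of these 3 genes overlapped between the groups. The secreted protein gene C1qtnf3, which is in no list, was at 780, 845, 674 and 1050 CPM in N1OE cells, against 21900, 3930, 19700, 10200 and 6380 CPM in controls. It fell by 3.62 ± 0.46 (adjusted p = 1e-05). The 3 matrix genes that rose were Sparcl1, Col15a1 and Timp3. Sparcl1, a secreted relative of osteonectin, was at 5300, 3020, 5220 and 5910 CPM in N1OE cells and at 299, 1080, 418, 971 and 569 CPM in controls, a rise of 2.99 ± 0.41 (adjusted p = 2.52e-05). Without N1OE replicate 1, 2 or 3, or without control 1, only 1 matrix gene was higher. The number lower stayed between 19 and 25 whichever of the 9 libraries was left out, and was 17 against controls 1 and 4 alone and 21 against controls 7, 8 and 9 alone.

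Which controls were used turned the direction of some matrix genes. Against the 4 re-isolated control libraries without the mark, 8 matrix genes were higher and 5 lower in N1OE cells. Dcn was 1.43 ± 0.48 higher there (adjusted p = 0.032), C1qtnf3 2.23 ± 0.39 higher (adjusted p = 0.000129) and Thbs2 0.32 ± 0.35 higher (adjusted p = 0.558), while Fmod was lower (-1.97, adjusted p = 0.00552). In the unmarked controls Dcn ranged from 19.9 to 227 CPM and C1qtnf3 from 103 to 384 CPM, well under the marked controls.

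**Figure D3:**
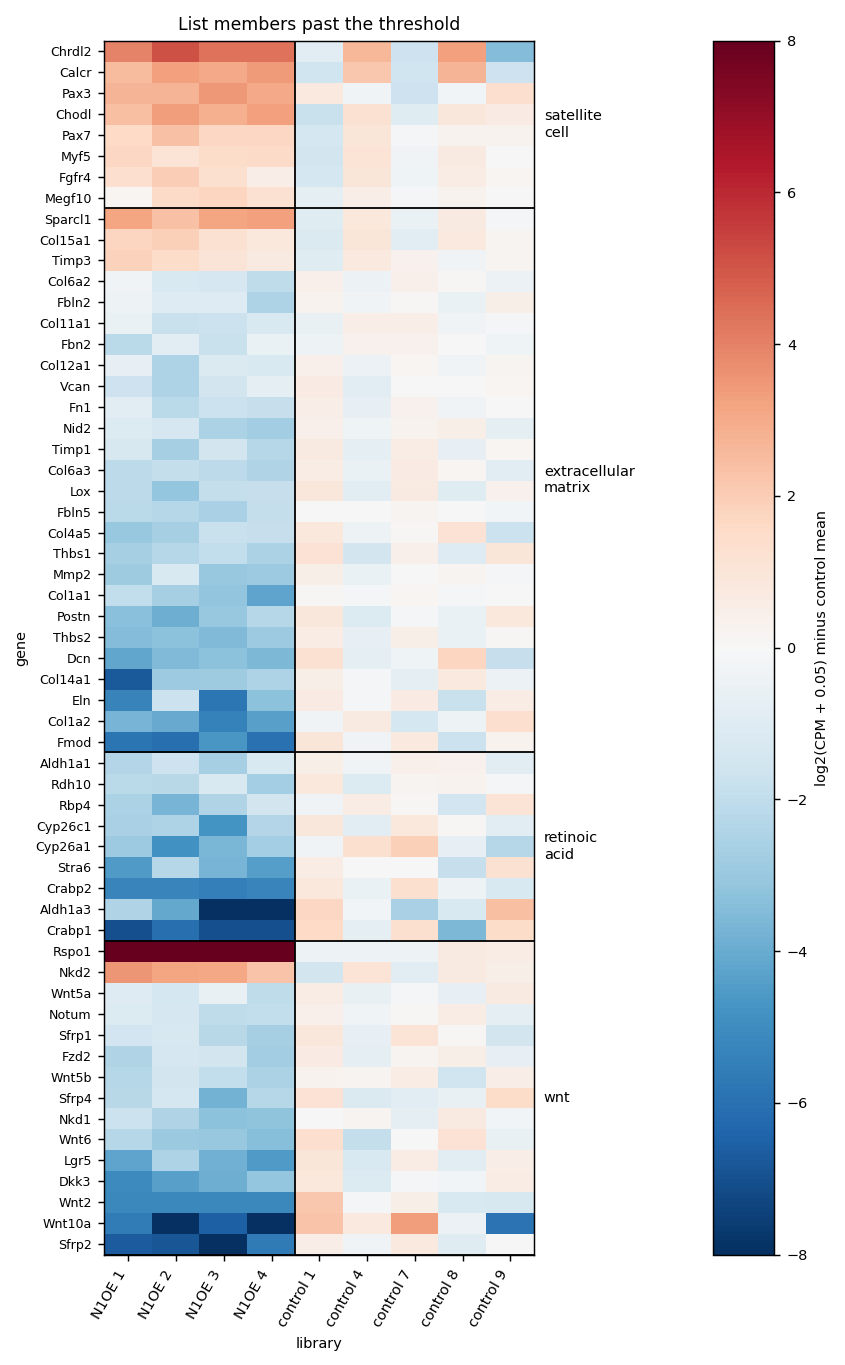
Members of 4 lists that passed the test (8 satellite cell, 26 extracellular matrix, 9 retinoic acid and 15 Wnt genes), 1 row per gene. Columns are the 4 N1OE libraries and then the 5 marked controls, and the colour is log2(CPM + 0.05) minus the mean of the controls, cut at -8 and 8. Rows of the matrix, retinoic acid and Wnt lists are mostly blue in N1OE columns, and satellite cell rows are red.

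Markers of some other cells were lower, as were the matrix genes. Of 11 fibro-adipogenic markers, genes of the connective tissue cells of muscle, 7 were lower and none higher (63.6%, against 12.2% of all tested genes). Their summed level was 2310 to 3560 CPM in N1OE libraries and 3290 to 13000 CPM in controls, and none of the 11 was at 0 in either group. Ly6a, the Sca-1 antigen, was at 2.95, 1.7, 6.87 and 1.19 CPM in N1OE cells, against 169, 28.5, 94.2, 26.4 and 162 CPM in controls, and fell by 4.79 ± 0.57 (adjusted p = 4.49e-06). Smoc2 fell by 4.47 ± 0.53 (adjusted p = 4.47e-06). The defining receptor gene Pdgfra averaged 3.47 ± 3.91 CPM in N1OE cells and 23.1 ± 28.6 CPM in controls (SD, n = 4 and 5), a difference that did not pass (adjusted p = 0.287). Pdgfra was chosen after its values were seen. Dcn is also on this list. The part of these cells in the matrix result was not tested.

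Mesothelial and epithelial markers were lower in 4 of 7 cases (57.1%, against 12.2% of all tested genes), and 4 of the 7 had passed the filter through the controls alone. Their sum was 4.33 to 6.28 CPM in N1OE libraries and 53 to 242 CPM in controls. Msln, the mesothelial surface protein mesothelin, was at 2.02, 1.5, 1.8 and 2.23 CPM in N1OE cells, against 202, 43.6, 174, 154 and 15.3 CPM in controls. It fell by 5.41 ± 0.57 (adjusted p = 1.09e-06), and by 6.01 without control 9. Krt19 had 1 read over the 4 N1OE libraries and 1833 over the controls, a ratio of 1380 (95% counting interval 247 to 54500), which became at least 291 when N1OE replicate 1 was left out and 808 without control 9. It did not pass with limma-voom (adjusted p = 0.129). Lrrn4 and Krt8 had no read in N1OE cells. The 4 lower markers became 2 without control 1 or control 9.

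Macrophage markers were lower in 5 of 12 cases (41.7%, against 12.2% of all tested genes), 3 of the 12 having passed the filter through the controls alone. Their sums were 37.7 to 193 CPM in N1OE libraries and 97.5 to 811 CPM in controls. Cd68, a lysosomal protein of macrophages, was at 9.43, 6.86, 7.39 and 5.96 CPM in N1OE cells, against 9.67, 48.8, 33.0, 33.3 and 18.8 CPM in controls. It fell by 1.77 ± 0.43 (adjusted p = 0.00765), and control 1 lay close to the N1OE libraries. The mannose receptor gene Mrc1, which passed the filter through the controls alone, was lower by 4.29 ± 0.97 on the log2 scale, a difference of -4.29, with -5.25 without N1OE replicate 1, -4.93 without N1OE replicate 2 and, without N1OE replicate 4, -3.26 and no call (adjusted p = 0.052). It did not pass with limma-voom (adjusted p = 0.0691). The count of 5 was 2 without N1OE replicate 2 or 3, 1 without N1OE replicate 4 and 8 without control 1. Of 9 tendon and cartilage markers 3 were lower (33.3%), and 4 of the 9, Tnmd among them, had passed the filter through the controls alone. The sum of this list was not lower. It was 264 to 888 CPM in N1OE libraries (median 839) and 487 to 717 CPM in controls (median 585). Tnmd, the tendon protein tenomodulin, was at 0, 0.516, 0.344 and 0.519 CPM in N1OE cells, against 35.4, 38.8, 33.6, 6.12 and 5.35 CPM in controls, a log2 difference of -5.89 ± 0.76, or -5.09 without N1OE replicate 1. Thbs4 fell by 2.33 ± 0.54 (adjusted p = 0.00541), by 2.93 without control 9, and lost its call without N1OE replicate 2 (adjusted p = 0.0532) or 4 (0.0612).

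Markers of vessels went the other way in part. Of 12 endothelial markers 4 were higher (Kdr, Tek, Emcn and Esam), 3 of the 12 having passed through N1OE alone. The share was 33.3%, against 12.2% of all tested genes. Their sum was 67.5 to 145 CPM in N1OE libraries and 18.3 to 58.3 CPM in controls. Kdr, the VEGF receptor, was at 6.0, 16.7, 17.5 and 6.48 CPM in N1OE cells, against 0.173, 0.625, 0.0533, 1.21 and 0.157 CPM in controls, a difference of 4.94 ± 0.75, and it passed the filter through N1OE alone. Of 10 pericyte and smooth muscle markers 3 were higher and Acta2 was lower (40%), and the list had 5 higher members without control 4. Rgs5, a pericyte regulator of G-protein signals, was at 149, 131, 451 and 544 CPM in N1OE cells and at 5.98, 41.6, 26.9, 18.1 and 23.1 CPM in controls, a rise of 3.75 ± 0.5 (adjusted p = 1.83e-05). The potassium channel subunit gene Abcc9 rose by 3.17 ± 0.56 (adjusted p = 0.000452). The sum of the list was 985 to 1390 CPM in N1OE libraries and 1720 to 3140 CPM in controls. Among 7 erythroid genes 2 were tested, and the globin gene Hba-a1 passed, with 182, 2.06, 4.12 and 0 CPM in N1OE cells and at most 0.157 CPM in controls. Its difference of 5.06 was 6.99 without N1OE replicate 4. It was not tested without N1OE replicate 1, 2 or 3, did not pass with limma-voom (adjusted p = 0.284) and may share reads with its copy Hba-a2. The T-cell gene Cd3e had 228 reads in N1OE cells and 1 in controls, a ratio of 303 (95% counting interval 53.9 to 12000), or at least 82.8 without control 9, while 6 of the 12 lymphocyte and neutrophil markers had no read in N1OE cells. The 3 tested of 8 adipocyte markers did not pass, and the smallest p among them was that of Plin4 (adjusted p = 0.149).

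**Figure D4:**
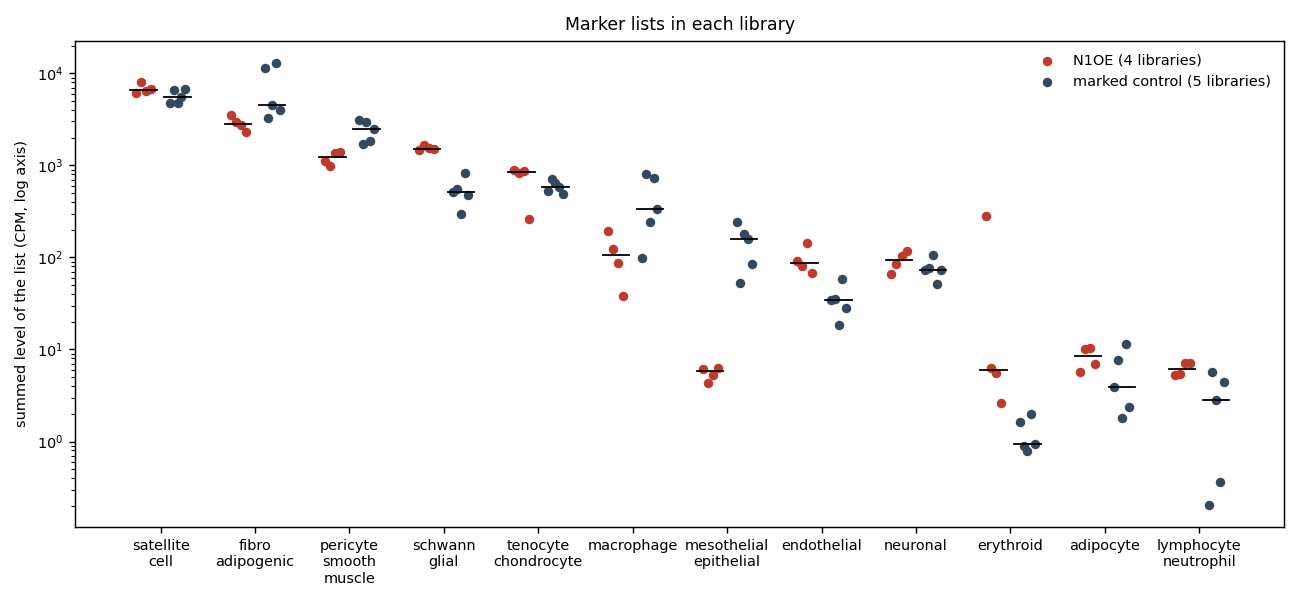
Summed level of each marker list in each library. The y axis is the sum of CPM over the list on a log axis, points are libraries (N1OE left, marked control right) and black lines are group medians. The groups are apart for the Schwann and glial, mesothelial, endothelial, pericyte and smooth muscle and erythroid lists, and the satellite cell sums overlap (6180 to 8120 CPM in N1OE, 4730 to 6710 CPM in controls).

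Retinoic acid genes were lower in 9 of 21 cases and higher in none (42.9%, against 12.2% of all tested genes). Their median log2 difference was -0.42, and 4 of the 21 had passed the filter through the controls alone. Retinoic acid is a vitamin A derivative that controls differentiation through nuclear receptors. The 9 genes cover its uptake (Stra6, Rbp4), synthesis (Rdh10, Aldh1a1, Aldh1a3), breakdown (Cyp26a1, Cyp26c1) and carriage inside cells (Crabp1, Crabp2). Crabp2 was at 4.97, 5.05, 4.38 and 5.03 CPM in N1OE cells, against 358, 138, 473, 151 and 84.5 CPM in controls, so the N1OE libraries were nearly alike while the controls spread widely. Crabp2 fell by 5.33 ± 0.43 (adjusted p = 5.38e-08). Crabp1 had 1 read over the N1OE libraries and 1318 over the controls, a ratio of 991 (95% counting interval 178 to 39200). The ratio became 627 when N1OE replicate 1 was left out, was at least 250 when replicate 2 was, and limma-voom did not call the gene (adjusted p = 0.057). Stra6, the receptor for the retinol carrier, passed the filter through the controls alone and had a log2 difference of -3.74 ± 0.63. The count was 9 whichever of the 9 libraries was left out, 7 against controls 1 and 4, 8 against controls 7, 8 and 9, and 6 with limma-voom. With the unmarked controls as reference, 5 were lower and 1 was higher.

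Wnt genes were lower in 13 of 39 cases and higher in 2 (38.5%, against 12.2% of all tested genes), with a median of -1.26. The filter had been passed through the controls alone by 13 of the 39 and through N1OE alone by 2. The secreted Wnt inhibitor Sfrp2 was at 1.65, 1.39, 0.0859 and 3.32 CPM in N1OE cells, against 245, 136, 292, 86.2 and 163 CPM in controls. It fell by 7.34 ± 0.63 (adjusted p = 1.01e-07), and by 6.38 without N1OE replicate 3. Dkk3, of the Dickkopf family, was at 2.74, 4.74, 6.44 and 11.5 CPM in N1OE cells, against 170, 46.0, 90.6, 81.4 and 146 CPM in controls, and fell by 4.1 ± 0.44 (adjusted p = 1.09e-06). Among the other 11 lower genes were the ligand genes Wnt2, Wnt5a, Wnt5b, Wnt6 and Wnt10a and the receptor genes Lgr5 and Fzd2. Rspo1, a secreted enhancer of Wnt signals, went the other way, with 107, 72.4, 76.3 and 56.8 CPM in N1OE cells against 0, 0, 0, 0.0606 and 0.0524 CPM in controls. That is 6501 reads in N1OE cells and 2 in controls, a ratio of 4320 (95% counting interval 1200 to 35700), 7300 without control 8 and 7080 without control 9. The other gene that rose was Nkd2, an inhibitor inside the cell. Without control 4, 4 Wnt genes were higher. Against the unmarked controls 4 Wnt genes were higher and 8 lower.

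BMP and TGF-β genes split, with 6 of 42 higher and 8 lower (33.3%, against 12.2% of all tested genes) and a median of 0.09. Fst, the activin and myostatin antagonist follistatin, was at 7.68, 8.66, 21.1 and 9.39 CPM in N1OE cells, against 77.1, 74.1, 95.6, 56.5 and 82.5 CPM in controls, and fell by 2.82 ± 0.36 (adjusted p = 1.08e-05). The latency protein gene Ltbp1 fell by 2.5 ± 0.35 (adjusted p = 3.55e-05), and Tgfbi, a matrix protein induced by TGF-β, by 4.01 ± 0.4 (adjusted p = 5.49e-07). The ligand genes Bmp6, Inhbb and Tgfb1 were among the 6 that rose, and without N1OE replicate 2 there were 3. Of 31 growth factor, receptor and binding protein genes 7 were lower and 1 higher (25.8%), and 4 were lower without N1OE replicate 3. Igfbp2, which binds insulin-like growth factors, was at 135, 70.4, 86.4 and 65.8 CPM in N1OE cells, against 1940, 791, 2130, 692 and 1160 CPM in controls, and fell by 3.82 ± 0.38 (adjusted p = 6.45e-07). Its relatives Igfbp4 and Igfbp3 fell by 2.95 ± 0.42 (adjusted p = 4.33e-05) and 2.2 ± 0.36 (adjusted p = 0.000209), while Igfbp5 was the 1 gene of the list that rose.

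**Figure D5:**
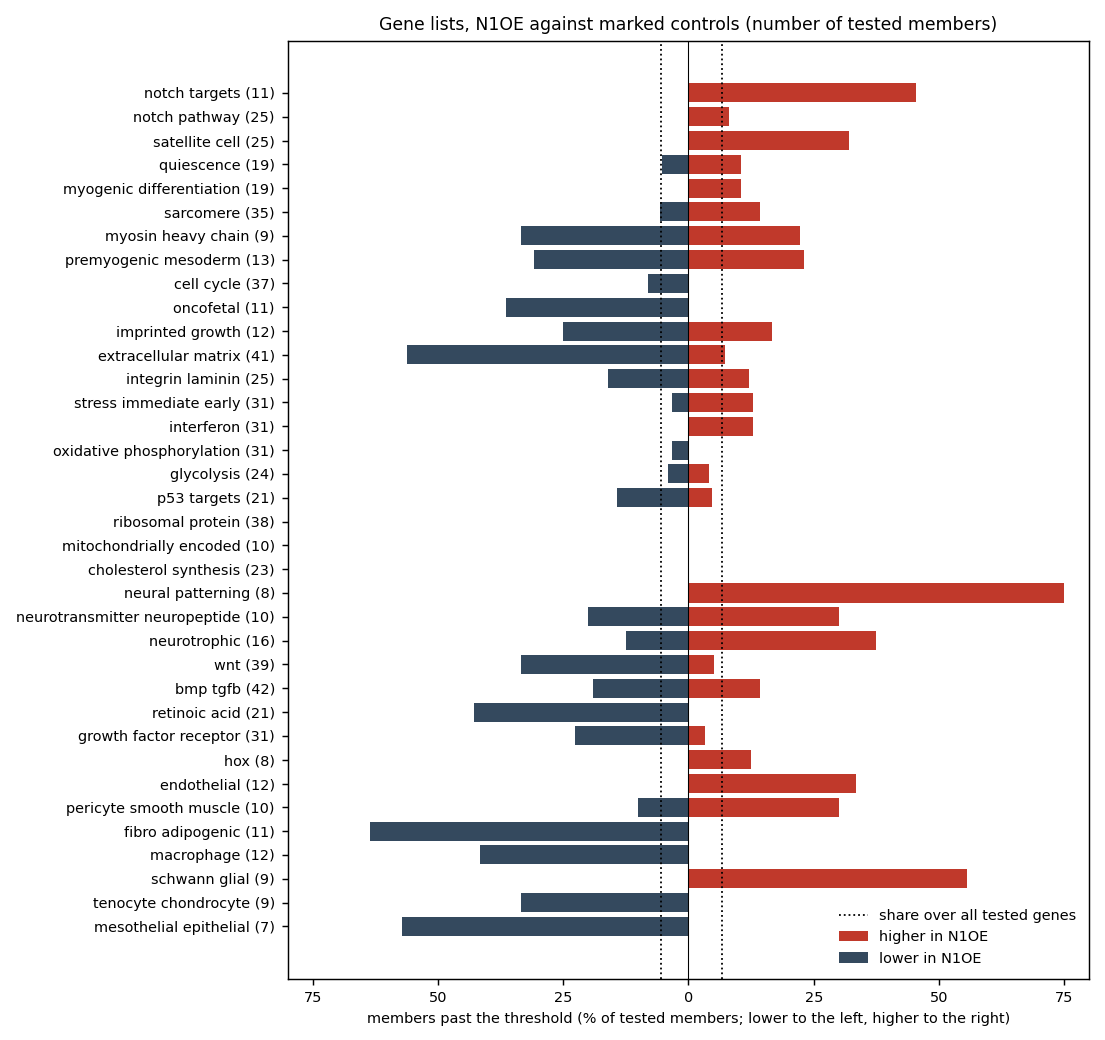
Share of tested members past the threshold in each list with at least 7 tested members. Bars to the right are members higher in N1OE and bars to the left members lower, in percent of the tested members (their number in brackets), and dotted lines mark the shares over all tested genes (6.74% higher, 5.5% lower). The longest bars to the left are those of the fibro-adipogenic, mesothelial and matrix lists, and of the 8 neural patterning genes to the right 6 passed through N1OE alone.

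Of 9 Schwann and glial markers 5 were higher and none lower (55.6%, against 12.2% of all tested genes), with 2 of the 9 having passed through N1OE alone. Their sum was 1470 to 1650 CPM in N1OE libraries and 300 to 832 CPM in controls, without overlap. Gfap, an intermediate filament of glia, was at 901, 776, 859 and 597 CPM in N1OE cells, against 7.36, 108, 11.9, 139 and 26.0 CPM in controls. It rose by 4.58 ± 0.62 (adjusted p = 2.11e-05), and controls 4 and 8 again stood above the other controls. Sox10, the transcription factor of neural crest and Schwann cells, was at 155, 107, 91.3 and 42.7 CPM in N1OE cells, against 4.28, 19.2, 3.94, 25.9 and 2.36 CPM in controls, and rose by 3.62 ± 0.57 (adjusted p = 0.00014). Without N1OE replicate 2 or 3 the count of 5 was 3.

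Of 37 neural patterning genes 8 were tested, and 6 of these had passed the filter through N1OE alone, so their number higher (6) is a description only. Zic4, a zinc-finger factor of the dorsal neural tube, was at 114, 113, 123 and 75.2 CPM in N1OE cells, against 0, 0, 0.0533, 0.0606 and 0.0524 CPM in controls. It had 8400 reads in N1OE cells and 3 in controls, a ratio of 3720 (95% counting interval 1270 to 18100). Otx2, a head organiser factor, was at 7.92, 49.7, 38.5 and 62.9 CPM in N1OE cells with 2 reads over all controls, a ratio of 1900 (95% counting interval 525 to 15700), 3210 without control 8 and 3110 without control 9. En1, an engrailed factor, was detected in all 9 libraries, at 16.1, 17.0, 12.0 and 11.6 CPM in N1OE cells and at 1.69, 3.57, 1.76, 3.21 and 3.09 CPM in controls. It rose by 2.43 ± 0.44 (adjusted p = 0.000535).

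Of 16 neurotrophic genes 6 were higher and 2 lower (50%, against 12.2% of all tested genes). Of the 16, 3 had passed the filter through N1OE alone and 1 through the controls alone. Ntrk2, the receptor of BDNF, passed through N1OE alone and was higher by 5.75 ± 1.0, with 5.05 without control 1, 6.45 without control 4 and 6.66 without control 9. Gdnf, which supports motor neurons, fell by 2.81 ± 0.48 (adjusted p = 0.000342). The count of lower genes was 1 without N1OE replicate 1, 2 or 3. Among 10 tested transmitter and neuropeptide genes 3 were higher and 2 lower (50%), and 1 was lower without N1OE replicate 3. Of these 10, 3 had passed the filter through N1OE alone and 1 through the controls alone. Gal, the neuropeptide galanin, was at 96.7, 64.0, 192 and 118 CPM in N1OE cells, against 4.8, 29.0, 2.24, 45.9 and 0.157 CPM in controls. Its rise of 4.44 ± 0.96 (adjusted p = 0.00308) was 5.08 without control 4, 5.24 without control 8 and 3.3 without control 9. Gad1, which makes the transmitter GABA, had 2003 reads in N1OE cells and 1 in controls, a ratio of 2660 (95% counting interval 478 to 105000), or at least 730 without control 7. Of 12 neuronal markers 5 were tested, 2 of them having passed the filter through the controls alone. Dcx rose by 1.79 ± 0.4 (adjusted p = 0.00392) and Tubb3 and Stmn2 were lower, of which Stmn2 did not pass with limma-voom (adjusted p = 0.335). Stmn2 differed by -5.98, or -5.37 without control 1, -5.21 without control 7 and -7.49 without control 8. The neuronal genes Snap25 and Nefl had no read in N1OE cells. Only 1 of the 2 lower neuronal markers passed without N1OE replicate 2 or 4.

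Few proliferation genes passed, at a share near that of all tested genes. Of 37 cell cycle genes 3 were lower and none higher, while the list's median was -0.71. The share was 8.11%, against 12.2% of all tested genes in either direction and 5.5% in the lower direction. The list had 4 higher and 2 lower genes against the unmarked controls. Ccnd1, cyclin D1, was at 207, 88.7, 114 and 60.2 CPM in N1OE cells, against 965, 738, 1150, 904 and 513 CPM in controls, and fell by 2.96 ± 0.37 (adjusted p = 9.57e-06). Ccnd2, cyclin D2, was at 125, 72.0, 46.7 and 25.3 CPM in N1OE cells, against 822, 492, 872, 738 and 332 CPM in controls, and fell by 3.42 ± 0.42 (adjusted p = 6.46e-06). Both cyclins were without overlap. The replication gene Mcm3 fell by 1.32 ± 0.37 (adjusted p = 0.0219) and lost its call without N1OE replicate 3 or 4 or control 7 or 8 (adjusted p between 0.0509 and 0.1). The count was 7 without control 1 and 6 without control 9. Of 11 tested fetal growth genes 4 were lower (36.4%), 2 of the 11 having passed through the controls alone. Hmga2, a chromatin protein of embryonic cells, was at 0.103, 0.0516, 0.172 and 0.156 CPM in N1OE cells, against 3.52, 4.82, 4.9, 5.45 and 0.839 CPM in controls. It passed the filter through the controls alone and had a log2 difference of -4.32 ± 0.81. The RNA-binding protein gene Igf2bp1 fell by 2.58 ± 0.44 (adjusted p = 0.000336), and Hmga1 fell by 2.03 ± 0.47 (adjusted p = 0.005).

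Of 12 imprinted growth genes 2 were higher and 3 lower (41.7%, against 12.2% of all tested genes). Zim1, an imprinted zinc-finger gene, was at 23.7, 33.2, 41.3 and 58.0 CPM in N1OE cells and at most 0.364 CPM in controls. It was the 1 gene of this list that passed the filter through N1OE alone, and was higher by 8.0 ± 0.65. Mest fell by 2.29 ± 0.4 (adjusted p = 0.00043) and Peg10 by 1.71 ± 0.37 (adjusted p = 0.00306). Only 1 of the higher genes passed without N1OE replicate 1, 3 or 4 or control 7. Genes of the mesoderm before muscle forms gave 3 higher and 4 lower of 13 (53.8%, against 12.2% of all tested genes). Of the 13, 1 had passed the filter through N1OE alone, the higher gene Tbx6. Among the lower ones, Meox2 fell by 2.81 ± 0.56 (adjusted p = 0.00136) and Tbx1 by 2.6 ± 0.47 (adjusted p = 0.00055). The 3 higher ones became 0 without N1OE replicate 1 and 1 without N1OE replicate 2 or 3. The Y-linked genes Ddx3y and Eif2s3y, which mark male mouse cells, were present in all 9 libraries and lower in N1OE cells, at 11.1 to 61.7 and 8.51 to 42.2 CPM in N1OE cells and at 38.5 to 171 and 35.8 to 73.2 CPM in controls. Ddx3y lost its call without N1OE replicate 1 (adjusted p = 0.0518) or 2 (0.0969).

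Quiescence, stress and interferon lists passed at shares of 15.8%, 16.1% and 12.9%, near the 12.2% of all tested genes. Of 19 quiescence genes 2 were higher and 1 lower. The lower one was the collagen gene Col5a1, at 105 to 273 CPM in N1OE cells and 348 to 853 CPM in controls. Col5a1 fell by 1.65 ± 0.37 (adjusted p = 0.00371), but against the unmarked controls it differed by 0.14 (adjusted p = 0.811). Btg2, an antiproliferative gene, was at 2310, 3870, 3030 and 2980 CPM in N1OE cells, against 399, 2120, 1060, 1510 and 1040 CPM in controls. It rose by 1.48 ± 0.42 (adjusted p = 0.0219), but lost the call without N1OE replicate 2, 3 or 4 or control 1 (adjusted p between 0.0529 and 0.0969). Txnip rose by 1.55 ± 0.44 (adjusted p = 0.0209), with no call without N1OE replicate 2, 3 or 4 or control 7 (adjusted p between 0.0588 and 0.104). Of 31 stress and immediate early genes, which cell isolation is known to induce, 4 were higher and 1 lower, and their sum was 40900 to 80700 CPM in N1OE libraries and 15800 to 52800 CPM in controls. Dnajb1, a heat shock co-chaperone, was at 5530, 10600, 7500 and 7940 CPM in N1OE cells, against 543, 3960, 1640, 3070 and 1830 CPM in controls, and rose by 2.08 ± 0.47 (adjusted p = 0.00462). Control 1 was the lowest library for both Btg2 and Dnajb1. Hsph1 rose by 1.65 ± 0.41 (adjusted p = 0.00878), and had no call without N1OE replicate 2 (adjusted p = 0.0569). The 4 higher stress genes became 2 without N1OE replicate 1 or 3 or control 1, 1 without N1OE replicate 2 and 8 without control 4. The part of cell isolation in these differences was not tested.

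Of 31 interferon genes 4 were higher, and 7 without control 4. Isg15, a ubiquitin-like protein, was at 62.9, 85.8, 59.8 and 106 CPM in N1OE cells, against 15.0, 30.1, 4.9, 11.9 and 48.5 CPM in controls, and rose by 2.2 ± 0.49 (adjusted p = 0.00372). The RNA sensor gene Ifih1 rose by 2.14 ± 0.47 (adjusted p = 0.00327). H2-K1 rose by 1.82 ± 0.34 (adjusted p = 0.000724), with reads that its near-identical relatives may share. Of 25 integrin and laminin genes 3 were higher and 4 lower (28%, against 12.2% of all tested genes). Lama5, a laminin chain, rose by 1.59 ± 0.4 (adjusted p = 0.00891, and 0.0534 without N1OE replicate 1), while Itga11, a collagen receptor chain, fell by 4.35 ± 0.4 (adjusted p = 1.72e-07). Without N1OE replicate 1 only 1 of the 3 higher genes passed, and without N1OE replicate 2 or 4 only 1 of the 4 lower ones. Of 21 p53 targets 1 was higher and 3 lower (19%), and 6 were lower without N1OE replicate 1. Pmaip1, a cell death gene, rose by 1.77 ± 0.43 (adjusted p = 0.00747, and 0.053 without N1OE replicate 3), and the cyclin gene Ccng1 fell by 1.65 ± 0.37 (adjusted p = 0.00385).

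Housekeeping programs gave few calls against the marked controls. Against the unmarked controls 16 ribosomal protein, 8 mitochondrially encoded, 8 oxidative phosphorylation and 15 glycolysis genes were lower. Against the marked controls, with limma, none of 38 ribosomal protein genes, 10 mitochondrially encoded genes, 23 cholesterol synthesis genes and 4 tested pluripotency genes passed, and their smallest adjusted p-values were 0.0783 for Rpl38, 0.289 for mt-Atp6, 0.166 for Insig1 and 0.589 for Tfcp2l1. Of 31 oxidative phosphorylation genes Ndufa4 was lower, by 1.23 ± 0.34 (adjusted p = 0.0187), and it lost the call without N1OE replicate 1, 2 or 3 (adjusted p between 0.0519 and 0.072). Of 24 glycolysis genes the muscle enolase gene Eno3 was at 44.3 to 58.8 CPM in N1OE cells, against 234 to 571 CPM in controls, and fell by 3.0 ± 0.33 (adjusted p = 1.99e-06). Aldoc, an aldolase of brain, had 2242 reads in N1OE cells and 3 in controls, a ratio of 994 (95% counting interval 340 to 4820), or 493 without N1OE replicate 4. It passed the filter through N1OE alone. In the unmarked controls Aldoc was at 39.2 to 74.6 CPM, and against them it was lower in N1OE cells (-1.71, limma adjusted p = 0.0191). Of 39 Hox genes 8 were tested, and Hoxc9, which passed the filter through N1OE alone, was higher by 3.94 ± 1.07, with no call without N1OE replicate 1 (0.0534) or 3 (0.0673).

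The genes with the widest gaps were nearly silent in 1 group. Vat1l was at 114, 273, 51.4 and 99.8 CPM in N1OE cells, against 0, 0, 0.0533, 0.0606 and 0.0524 CPM in controls. This is 11125 reads in N1OE cells and 1 read in each of controls 7, 8 and 9, a ratio of 4930 (95% counting interval 1690 to 23900). The same pattern of 1 read held for Slc26a8 (ratio 1250, 426 to 6050), an anion transporter gene, and Chdh (884, 302 to 4290), a choline dehydrogenase gene. Heph, a copper-dependent iron oxidase gene, had 2367 reads in N1OE cells and 1 in control 9, and Pla2g4e, a phospholipase gene, 2381 and 1. Their ratios were 3150 and 3170, or at least 860 and at least 865 without control 9. Nos1ap, an adaptor of neuronal nitric oxide synthase, had a ratio of 1550 (428 to 12800), and 2540 without control 7 or control 9. Counting intervals and lower bounds hold counting error only, and the lower bounds set 3 reads over the silent group.

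In the other direction, Ptgis, the synthase of prostacyclin, was at 0.789, 0.206, 1.12 and 0 CPM in N1OE cells, against 164, 139, 280, 18.8 and 67.9 CPM in controls. It had a log2 difference of -8.12 ± 0.75, with -8.71 without N1OE replicate 3 or control 8 and -7.24 without N1OE replicate 4. Pthlh, a relative of parathyroid hormone, had a log2 difference of -6.65 ± 0.71 and the membrane protein gene Tmem26 one of -6.61 ± 0.7. Every gene of this paragraph passed the filter through the controls alone, and every gene of the widest rises through N1OE alone. Pcdhac2 had no read in N1OE cells and 686 in controls, at least 172-fold lower, or at least 109-fold lower without N1OE replicate 1, and it shares exons with the rest of the protocadherin alpha cluster. Penk, the enkephalin precursor, was at 0.103, 0.67, 0.0859 and 0 CPM in N1OE cells, against 109, 10.7, 30.5, 4.06 and 130 CPM in controls. It differed by -7.37, and by -8.06 without N1OE replicate 2 and -8.07 without control 8. Moxd1 differed by -7.33, or -6.72, -8.34 and -6.44 without control 1, 7 or 9. Col8a2, a collagen of basement membranes, differed by -6.54, or -5.76 without N1OE replicate 3 and -7.59 without control 8. Epyc, a small matrix proteoglycan, had 3 reads in N1OE cells and 3155 in controls, a ratio of 791 (95% counting interval 270 to 3840), which was 501 without N1OE replicate 1 or control 8 and 2020 without N1OE replicate 3. These 4 genes passed with limma and did not pass with limma-voom, where the adjusted p was 0.0673 for Penk, 0.2 for Moxd1, 0.0944 for Col8a2 and 0.118 for Epyc.

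Among genes with a mean of at least 50 CPM in both groups, the widest rises without overlap were those of Gfap, Dmp1, Plekhb1, Edn3, Trf and Sparcl1. Dmp1, an acidic phosphoprotein of bone matrix, was at 1380, 967, 1850 and 1200 CPM in N1OE cells, against 29.0, 196, 44.5, 243 and 32.0 CPM in controls. It rose by 4.18 ± 0.53 (adjusted p = 8.94e-06). Plekhb1 rose by 3.58 ± 0.51 (adjusted p = 4.47e-05). Trf, which carries iron in plasma, was at 477, 351, 562 and 375 CPM in N1OE cells and at 16.9, 154, 29.9, 204 and 17.2 CPM in controls, a rise of 3.15 ± 0.58 (adjusted p = 0.000712). Edn3, an endothelin peptide, rose by 3.28 ± 0.68 (adjusted p = 0.00227), or by 2.69 without control 7 and 3.9 without control 8. For Dmp1, Trf, Edn3, Gfap, Chrdl2 and Gal alike, controls 4 and 8 were the 2 highest of the 5 controls.

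Levels in the remaining groups are a description. Notch1 was at 136 to 174 CPM in the 4 unmarked controls and at 15.6 to 52.6 CPM in 3 re-isolated Notch1 knockout libraries. Heyl was at 384 to 693 CPM in unmarked controls and 71.2 to 222 CPM in knockout libraries, so for both genes the N1OE range overlapped that of the unmarked controls, and the range of the marked controls overlapped that of the knockout. Nrarp was at 38.1 to 49.0 CPM in unmarked controls, above all N1OE libraries. Pax7 was at 51.8 to 113 CPM in unmarked controls, and Dcn at 2970 to 8340 CPM in knockout libraries. Gfap was at 14.4 to 82.2 CPM in unmarked controls and 8.15 to 145 CPM in knockout libraries, below every N1OE library. Zic4 was at 2.41 to 6.61 CPM in unmarked controls and 1.61 to 2.64 CPM in knockout libraries, above the marked controls and below every N1OE library. Ddx3y was at 0 to 2.77 CPM in unmarked controls, against 26.9 to 77.2 CPM in knockout libraries. Tested against the unmarked controls, of 103 called genes named here or by the same rule, 56 kept their call, 25 lost it and 22 changed sign. Among the lost calls were those of Col1a2 (-1.04, adjusted p = 0.345), Smoc2 (-0.18, adjusted p = 0.901), Dkk3 (-0.94, adjusted p = 0.201) and Myh1 (-0.55, adjusted p = 0.363). Ccnd2 changed sign (1.03, adjusted p = 0.127), as did Ltbp1 (0.54, adjusted p = 0.302), Isg15 (-0.1, adjusted p = 0.873) and Mest (0.27, adjusted p = 0.629), and none of these 4 passed there.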

How the data were processed

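RNA was measured by sequencing of re-isolated cells, with a low-input cDNA kit and Nextera XT, which keep no strand. Per the submitters' processing notes, the authors used Trimmomatic 0.33, FastQC, featureCounts, edgeR and mm10; no order or settings are given. The deposited values are log2 CPM per gene, with the lowest value, -4.19, standing for 0 reads. Value steps gave whole reads for every value (tolerance 0.05 read), and whether counts were adjusted before deposit was not decided.

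From the deposited values, genes with at least 1 CPM in 3 of the 9 libraries were fitted with limma 3.58.1 (R 4.3.3; lmFit, and eBayes with trend), with Benjamini-Hochberg adjustment over all 13320 tested genes and a threshold of 0.05. Summaries and figures used Python 3.11.15, pandas 2.3.3, numpy 2.4.6, scipy 1.17.1 and matplotlib 3.10.9. Coordinates are from GENCODE M21 (GRCm38). Genes with at most 3 reads in a group are given by a read ratio with an exact 95% interval. Depths were 11637817 to 29154176 reads in N1OE and 16501661 to 28941840 in controls, so that 3 reads equal 0.103 to 0.258 CPM. On simulated data of this design, limma recovered 45 of 46 genes raised and 44 of 52 lowered by 3 on the log2 scale. It recovered 14 of 46 raised and 17 of 47 lowered by 1.5, and called 2 of 12718 unchanged genes. The simulated counts were drawn independently for each gene and library, without patterns shared between libraries. These rates therefore do not measure false calls in the real data.

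Genes and lists were chosen with earlier results of these data known. Named are Notch1, the Notch targets, Pax3, Pax7, Myf5, Myod1 and Myog, the 10 widest rises and falls without overlap and with at least 5 CPM, the 6 widest each way with at least 50 CPM in both groups, and the members with the smallest p of each list (up to 3 per program, 2 per cell type). A few genes that this rule names are not reported here. Alternatives were other pseudocounts, filters, scaling, limma-voom on recovered reads, array weights, a shared fit, a replicate block, other controls, and leaving out each library.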

Additional observations from a re-analysis of the deposited data

Results flagged for a closer look

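In 256 groups of values examined, 1 library stood apart from the others of its group by Dixon's test in 21 cases. A chance rate of about 1 in 20 groups holds for normal values and not for groups near 0. Where all other libraries of the group were at 0, a single read always gives a flag. This was so for Cd3e, Crabp1, Gad1, Heph, Krt19 and, in the controls, Pla2g4e. Among the N1OE libraries, replicate 2 was the high one for Pax7 (154 CPM), Edn3 (490 CPM) and Crabp1 (0.0516 CPM, 1 read). Replicate 3 was high for Fmod (35.7 CPM), Igfbp4 (23 CPM) and Peg10 (59.7 CPM), and low for Crabp2 (4.38 CPM) and Stmn2 (0 CPM). Replicate 1 was high for Tbx1 (6.69 CPM) and Krt19 (0.0343 CPM, 1 read), and low for Pla2g4e (6.93 CPM), Dll4 (0 CPM) and Tnmd (0 CPM). Replicate 4 was low for Hmga1 (1.35 CPM) and high for Ndufa4 (91.1 CPM). Among the marked controls, replicate 9 was low for Hmga2 (0.839 CPM) and held the single control read of Cd3e, Heph and Pla2g4e (0.0524 CPM each). Replicate 7 held the single control read of Gad1 (0.0533 CPM), and replicate 8 had 0 CPM of Tfcp2l1.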

How the results depend on the processing

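Pseudocounts, filters, median ratio scaling, limma-voom, array weights and a shared fit over the re-isolated groups gave 1214 to 1905 called genes and no reversed call. Across the leave-one-out fits the count was 1072 to 1881 (519 to 1120 higher, 553 to 761 lower), and 149 to 230 list members passed, against 203. Against controls 1 and 4 only, 843 genes (561 higher, 282 lower) and 121 list members passed, and against controls 7, 8 and 9 only 454 were lower; both subsets were chosen after seeing the data. With all 9 controls 859 passed (446 higher, 413 lower; 98 list members), and against the 4 unmarked controls 2731 (1407 lower). The cause of these moves was not tested. Replicate numbers 1 and 4 occur in both groups, but same-numbered libraries did not deviate together (r = -0.121 and -0.194). With a replicate block 275 genes passed (150 higher, 125 lower) and 44 list members. In that fit only the libraries numbered 1 and 4 inform the group difference. Its count therefore does not measure how stable the comparison of all 9 libraries is.

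Against the 4 unmarked controls these log2 differences changed sign: Aldoc -1.71, C1qtnf3 2.23, Ccnd2 1.03, Chodl 0, Col5a1 0.14, Dcn 1.43, Dcx -0.29, Ddx3y 6.7, Eif2s3y 5.28, Hes1 -0.83, Hes5 -0.54, Hey2 -0.04, Hoxc9 -0.4, Insig1 -0.63, Isg15 -0.1, Ltbp1 0.54, Mcm3 0.48, Mest 0.27, Mybpc2 -0.84, Mymk -0.83, Myod1 -0.87, Nrarp -2.05, Tgfbi 0.02, Thbs2 0.32 and Thbs4 2.18. With all 9 controls Ddx3y was at 1.98 and Eif2s3y at 1.3. Lfng, which was not called, was at 0.08 with array weights, 0.02 against controls 1 and 4, and between -0.34 and 0.12 over the leave-one-out fits, above 0 in those that lacked N1OE 3 (0.04), N1OE 4 (0.12), control 4 (0.12) or control 9 (0.08). Genes under 0.103 to 0.258 CPM (3 reads) in a library could not be sized there.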

Other observations

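The 3 controls with many genes of exactly 1 read shared those genes. In controls 7, 8 and 9 together 96 genes had exactly 1 read in each library, and 87 of them had 0 reads in controls 1 and 4. Any 3 of the N1OE libraries shared 6 to 10 such genes, and controls 1 and 4 shared 38. Vat1l, Zic4, Slc26a8, Chdh, Aldoc and Dll4 were of this kind, so their control level rests on 1 read in each of those 3 libraries.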
